A study of Drosophila melanogaster with 10 samples.

Results

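The genes described here encode the nuclear pore complex, the channel through which proteins and RNA pass between nucleus and cytoplasm. They were chosen by name: every gene whose symbol begins with Nup followed by a digit, and a list of pore genes with other names, in all 30 genes. For 28 of them the array carried a probe set, the group of short probes that together read 1 transcript, that the platform annotation assigned to that gene alone. Nup58 and Gp210 were named on no such probe set and are not described. The 28 are among 11982 genes with a single-gene probe set, and each was read by 1 probe set, so no choice between probe sets was needed. Mgtor is the current symbol of Megator, listed elsewhere as Mtor, and is not the kinase gene mTor.

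The pore is built from repeated subunits around a ring. An outer ring (the Y complex) and an inner ring form its scaffold, and membrane proteins fix it in the nuclear envelope. Proteins rich in phenylalanine-glycine repeats fill the central channel, and cytoplasmic filaments and a nuclear basket reach out on either side. In dividing cells new pores are inserted during interphase, parts of the pore come apart in mitosis, and the Y complex returns to chromatin as the envelope re-forms.

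Signals came from 10 arrays of Drosophila S2 cells, a cultured line of embryonic origin with haemocyte-like properties. Stable S2 lines had been given copper sulfate to switch on knockdown of SLIMP, a mitochondrial relative of seryl-tRNA synthetase, and live cells had been stained with a DNA dye and sorted in G1 or in G2/M. The labels gave control cells, called wild type, in G1 (n = 3) and in G2/M (n = 3), and SLIMP knockdown cells in G1 (n = 2) and in G2/M (n = 2). Each library came from 25000 sorted cells and was amplified by 15 cycles of PCR. The labels do not say whether the lines were clonal, whether control cells also received copper, or whether replicate numbers stand for separately grown cells, so the p-values speak only to the scatter among these arrays, part of which may be technical. A culture here means a G1 library and the G2/M library that shares its genotype label and number, and values are listed below in the order control 1, control 2, control 3, knockdown 2, knockdown 3.

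The sorting labels and the genotype labels were checked first. The cyclin genes CycB and CycB3, the anaphase activator gene fzy and the kinesin gene ncd were all higher in G2/M in every culture, with log2 differences over the 5 cultures of 0.53, 1.29, 1.06 and 2.02. Slimp did not follow the genotype labels: averaged over both phases it read 8.85, 9.01, 12.53, 12.56 and 8.82 (log2), so the cultures labelled control 3 and knockdown 2 stood apart from the others. No direction is therefore drawn from the genotype labels. All 8 haemocyte markers lay above the median probe set (6.59) in every library, from 7.32 for NimC1 to 13.43 for Col4a1. Of 6 markers of other cell types, Act88F, Fbp1, Lsp2 and vas lay below it in every library, at 5.20 or less, and the neuronal genes nSyb (7.02 to 7.31) and elav (10.16 to 10.40) lay above it. Levels of different probe sets cannot be compared, so these values do not settle the cell type. Of the haemocyte markers, Hml and Pxn rose in G2/M and NimC1 and He fell, by no more than 0.34 on the log2 scale, and their part in the results was not tested.

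Most nuclear pore genes were higher in G2/M than in G1. In a limma fit with culture as a block, 20 of 28 rose and 2 fell at an adjusted p under 0.05, where 19.3% of all 18769 probe sets passed (10.3% rose and 9.00% fell). All 28 pore genes lay above the median signal of 6.59 (log2), with means from 7.68 to 11.78. Among probe sets at or above that median, 18.4% rose and 14.0% fell. The median log2 difference was 0.29 for pore genes, 0.0046 for all probe sets and 0.02 for the brighter ones. Signal was higher in G2/M in all 5 cultures for 19 pore genes and lower in all 5 for 3, where 15.7% and 13.6% of all probe sets did so and 26.0% of the brighter ones were higher. In the control libraries taken alone, 15 pore genes had all G2/M values above all G1 values and 2 had all below, where 12.7% and 7.44% of all probe sets did. In bulk fractions, a different mix of cells in a sort and a different RNA level per cell cannot be told apart. The arrays' distributions were equalised in processing, so a rise or fall here is relative to the other probe sets. RNA amounts per cell were not measured.

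**Figure D1:**
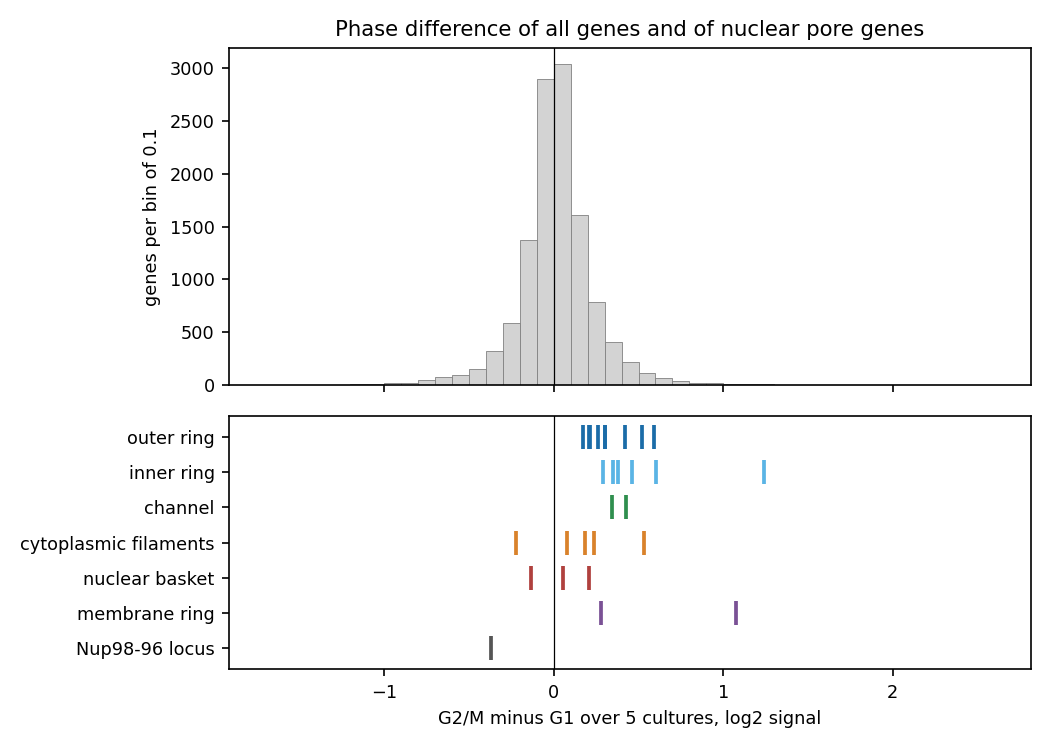
Histogram of the log2 difference G2/M minus G1 over 5 cultures for all genes with a single-gene probe set (top, genes per bin of 0.1), with 1 tick per nuclear pore gene by pore part (bottom, the same axis). The ticks run from -0.37 for Nup98-96 to 1.24 for Nup35, and all outer ring, inner ring, channel and membrane ring ticks lie right of 0.

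The change was not uniform over the pore. Of 15 scaffold genes, 9 in the outer and 6 in the inner ring, all had a positive difference, as did 51.5% of all probe sets, and 13 passed the test. Both measured channel genes rose. Of 8 genes for filaments and basket, 4 rose, 1 fell and 3 did not pass, and the joint Nup98-96 locus fell. Over all probe sets 10.3% rose and 9.00% fell, and of the brighter ones 18.4% rose and 14.0% fell. No test was made of the difference between parts.

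**Figure D2:**
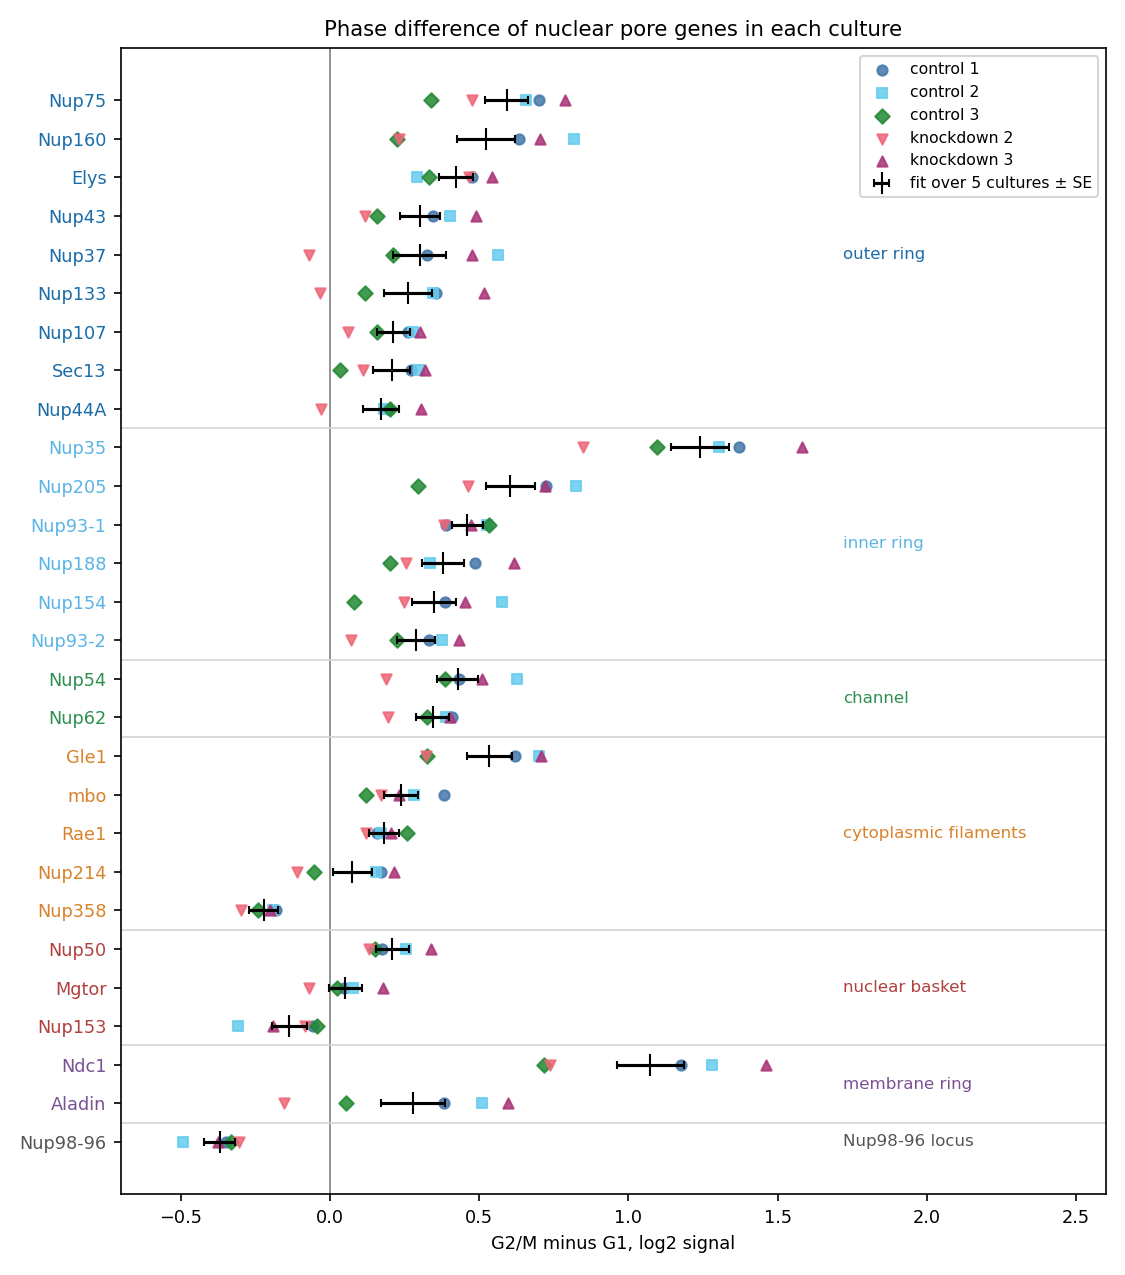
Log2 difference G2/M minus G1 of each nuclear pore gene (rows, grouped by pore part) in each of the 5 cultures (coloured symbols), with the limma estimate and its SE in black. Nup35 and Ndc1 lie farthest right, between 0.72 and 1.58 in every culture, and Nup98-96 and Nup358 lie left of 0 in every culture.

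The inner ring held the gene with the largest rise of the 28. Nup35, whose vertebrate and yeast relatives bind membrane and tie the inner ring to it, read 10.11, 10.27, 10.01, 10.26 and 10.02 in G1 and 11.48, 11.57, 11.11, 11.11 and 11.60 in G2/M. The lowest G2/M library lay above the highest G1 library. The rise was 2.36-fold, or 1.24 ± 0.10 (SE) on the log2 scale, with an SD of 0.28 over 5 cultures and an adjusted p of 0.000202 in limma. Nup205, a large scaffold protein of the inner ring, read 9.21, 9.26, 9.21, 9.21 and 9.17 in G1 and 9.93, 10.09, 9.51, 9.67 and 9.89 in G2/M. Its G1 libraries lay within 0.1 of each other, whereas in G2/M those labelled control 3 and knockdown 2 stayed below the rest. Nup205 rose 1.52-fold (0.60 ± 0.08 SE, adjusted p = 0.00172 in limma).

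The other inner ring genes rose by smaller amounts. Nup93-1 and Nup93-2 encode a pair of related proteins, Nup93 in other animals, that anchor the channel proteins to the ring. Nup93-1 rose by 0.46 and had the tightest set of differences in this ring, from 0.38 to 0.53, and Nup93-2 rose by 0.29, from 0.07 to 0.43. Nup154, the fly Nup155, rose by 0.35, and Nup188, a relative of Nup205, by 0.38. Adjusted p-values of these 4 genes lay between 0.000833 and 0.0145 in limma.

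Genes of the outer ring rose by a median of 0.30 on the log2 scale. Nup75, the fly Nup85, read 10.41, 10.43, 10.52, 10.44 and 10.35 in G1 and 11.11, 11.09, 10.86, 10.92 and 11.13 in G2/M. The 2 phases did not overlap, and the rise was 1.51-fold (0.59 ± 0.07 SE, adjusted p = 0.00112 in limma). Nup160, a long arm protein of the Y complex, read 9.02, 9.11, 8.61, 8.90 and 8.90 in G1 and 9.66, 9.92, 8.84, 9.13 and 9.60 in G2/M. Its phases overlapped across cultures, because control 3 was low in both, while within each culture G2/M was higher, by 0.22 to 0.82. The rise was 1.44-fold (0.52 ± 0.10 SE, adjusted p = 0.00626 in limma), and without the culture block the adjusted p was 0.146.

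Elys, which binds chromatin and recruits the Y complex at the end of mitosis, rose by 0.42, with differences of 0.29 to 0.54 and an adjusted p of 0.00175. Nup43 and Nup37, beta-propeller proteins of the Y complex, each rose by 0.30. Nup107, also of the Y complex, rose by 0.21, and so did Sec13, which also coats vesicles leaving the endoplasmic reticulum. Nup133, at the tip of the Y complex, and Nup44A, the fly Seh1, which also acts in a nutrient-sensing complex, had differences of 0.26 and 0.17 that did not pass (adjusted p = 0.0542 and 0.0854 in limma). Both were positive in 4 of 5 cultures and -0.03 in knockdown 2. Nup37 was also below 0 in that culture, at -0.07.

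Ndc1, a membrane protein that seats the pore in the envelope, showed the other large rise. It read 8.62, 8.51, 8.43, 8.51 and 8.27 in G1 and 9.79, 9.79, 9.14, 9.25 and 9.73 in G2/M. G2/M libraries all lay above G1 libraries, and again those labelled control 3 and knockdown 2 were the lower 2 of the G2/M set. The rise was 2.10-fold (1.07 ± 0.11 SE, SD 0.33 over 5 cultures, adjusted p = 0.000622 in limma). Aladin, which Ndc1 brings to the pore, read 7.58, 7.67, 7.42, 7.92 and 7.28 in G1 and 7.97, 8.18, 7.47, 7.76 and 7.87 in G2/M. It was higher in 4 cultures and lower in knockdown 2 (-0.16), and its difference of 0.28 ± 0.11 (SE) did not pass (adjusted p = 0.112).

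**Figure D3:**
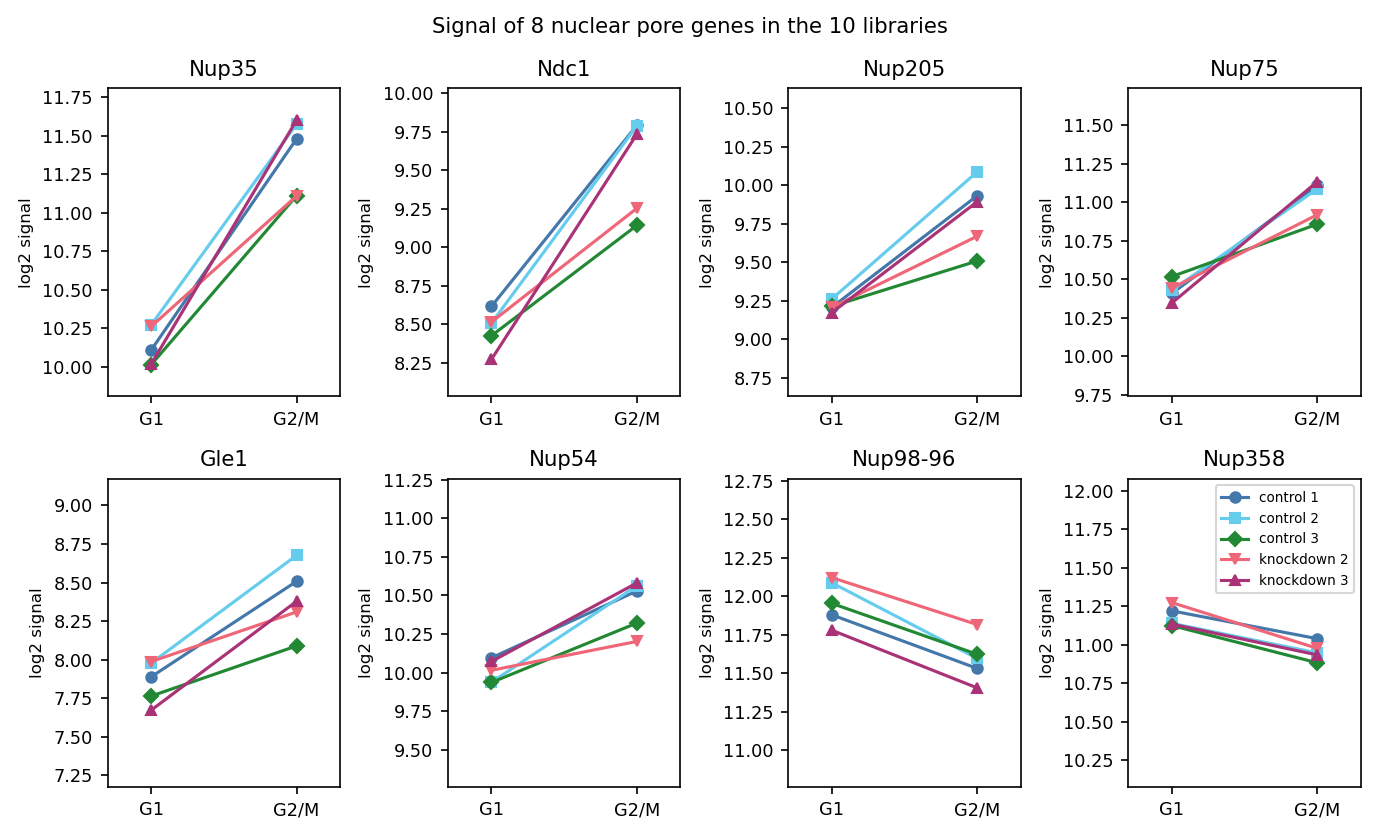
Log2 signal of 8 nuclear pore genes in G1 and G2/M, with 1 line per culture and a span of 2 log2 units on every vertical axis. Lines for Nup35 and Ndc1 rise most, with control 3 and knockdown 2 ending lowest in G2/M, and all lines for Nup98-96 and Nup358 fall.

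Both measured channel genes rose. Nup62, which with Nup54 and Nup58 lines the channel with repeats that bind transport receptors, read 10.12, 10.15, 10.17, 10.19 and 10.11 in G1 and 10.53, 10.54, 10.49, 10.39 and 10.51 in G2/M. Its values were close together within each phase, and the phases did not overlap. Nup62 rose by 0.34 ± 0.05 (SE, adjusted p = 0.00333 in limma). Nup54 read 10.10, 9.94, 9.94, 10.01 and 10.07 in G1 and 10.53, 10.56, 10.32, 10.20 and 10.58 in G2/M, again without overlap. It rose by 0.43 ± 0.07 (SE, adjusted p = 0.00338).

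Genes of the cytoplasmic filaments moved in both directions. Gle1, which activates the helicase that strips export proteins from mRNA leaving the pore, read 7.89, 7.98, 7.76, 7.99 and 7.67 in G1 and 8.51, 8.68, 8.09, 8.31 and 8.38 in G2/M. Every G2/M library was above every G1 library, and Gle1 rose 1.45-fold (0.53 ± 0.08 SE, adjusted p = 0.00203 in limma). The gene mbo, the fly Nup88, read 7.75, 7.85, 7.91, 7.81 and 7.86 in G1 and 8.13, 8.13, 8.03, 7.98 and 8.10 in G2/M. It rose by 0.24 ± 0.06 (SE, adjusted p = 0.0190). Rae1, an mRNA export factor that binds Nup98, rose by 0.18, with differences of 0.12 to 0.26 and an adjusted p of 0.0341. Nup214, the partner of mbo, had a difference of 0.07 (adjusted p = 0.503) and was below 0 in control 3 (-0.05) and knockdown 2 (-0.11).

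Nup358, the large filament protein that holds the Ran GTPase-activating protein, fell. Its libraries, listed because it is the one filament gene that fell, read 11.22, 11.14, 11.12, 11.27 and 11.13 in G1 and 11.04, 10.95, 10.88, 10.98 and 10.93 in G2/M. G2/M was lower in all 5 cultures, with differences of -0.18 to -0.30, without overlap, and the difference was -0.22 ± 0.05 (SE, adjusted p = 0.0143 in limma). With the cultures labelled control 3 and knockdown 2 left out, it was -0.19 with an adjusted p of 0.0686. Nup358 and Nup37 are neighbours on chromosome arm 3R with no protein-coding gene between them in RefSeq Release 6, and their differences had opposite signs.

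In the nuclear basket, Nup50 rose and the larger proteins did not pass. Nup50, which binds importins and helps release their cargo, read 10.25, 10.25, 9.96, 10.01 and 10.18 in G1 and 10.42, 10.50, 10.11, 10.14 and 10.52 in G2/M. The phases overlapped across cultures, and within cultures G2/M was higher by 0.13 to 0.34 (0.21 ± 0.05 SE, adjusted p = 0.0268 in limma). Without the culture block its adjusted p was 0.304. Nup153, the repeat protein at the base of the basket, read 10.56, 10.80, 10.24, 10.43 and 10.59 in G1 and 10.50, 10.50, 10.20, 10.34 and 10.40 in G2/M. It was lower in all 5 cultures, with differences of -0.04 to -0.31, yet its estimate of -0.14 ± 0.06 (SE) did not pass (adjusted p = 0.146). Mgtor, the fly Tpr, forms the basket fibres and also serves the spindle checkpoint, and its difference was 0.05 (adjusted p = 0.596).

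Nup98-96 is 1 locus whose product is cut into Nup96 of the outer ring and Nup98, a mobile repeat protein. One probe set reads it, so its products cannot be told apart. It read 11.88, 12.09, 11.95, 12.12 and 11.78 in G1 and 11.53, 11.60, 11.62, 11.82 and 11.41 in G2/M. It was lower in G2/M in all 5 cultures, with differences of -0.30 to -0.49, although the highest G2/M library (knockdown 2) lay above the lowest G1 library (knockdown 3). The difference was -0.37 ± 0.05 (SE), and Nup98-96 fell with an adjusted p of 0.00201 in limma, against the rise of the other outer ring genes that passed.

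How many genes passed depended on the block and on single cultures. Without the culture block, 14 passed (12 rose, 2 fell), where 7.29% of all probe sets passed (4.54% rose, 2.75% fell). The count was also 14 without the culture labelled control 2 and without that labelled knockdown 3, again with 12 higher and 2 lower. In these fits 2189 and 2413 of 18769 probe sets passed. With each culture left out in turn, 14 genes passed every time: Nup35, Nup205, Nup93-1, Nup188, Nup154, Nup75, Nup160, Elys, Nup62, Nup54, Gle1 and Ndc1 rose, and Nup98-96 and Nup358 fell. Nup35 ranged from 1.15 to 1.34 and Ndc1 from 0.98 to 1.16 over these fits. With both cultures of high Slimp signal left out, 22 passed (21 rose, 1 fell), where 3664 of 18769 probe sets passed.

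The phase difference was also tested within each genotype label. In libraries labelled control, without a block, 4 of 28 genes rose and none fell, where 0.900% of all probe sets passed and 0.629% rose. Nup35 rose by 1.26, Ndc1 by 1.06, Nup75 by 0.57 and Nup62 by 0.37, with adjusted p-values of 0.0263 to 0.0486 in limma. In 18 pore genes the limma unadjusted p was under 0.05, as in 2643 of 18769 probe sets. Each array of control 1 and of control 2 was also left out in turn. In every such fit 0 pore genes passed, and so did 0 of all 18769 probe sets. These fits therefore do not set pore genes apart from the rest of the array. Leaving out the G1 array of control 3 gave 1 pore gene and 153 probe sets, and leaving out its G2/M array gave 5 and 166. With culture as a block, 10 rose and 1 fell, where 8.94% of all probe sets passed (4.51% rose, 4.43% fell). In libraries labelled knockdown limma called 0 of 28 and 0 probe sets without a block, with 12 pore genes and 1724 probe sets at an unadjusted p under 0.05. The smallest p-values were those of Nup35 (1.21, adjusted p = 0.149) and Nup75 (0.63, adjusted p = 0.194). With the block Nup35 (1.21), Ndc1 (1.10) and Elys (0.50) rose, 3 of 28, where 1.68% of all probe sets passed (0.789% rose, 0.890% fell).

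Whether the phase difference itself differed between genotype labels was tested as an interaction. Limma called 0 of 28 pore genes and 0 of 18769 probe sets, and no pore gene had an unadjusted p under 0.05, with or without the block, while 333 probe sets did without it. Nup37 (-0.16 ± 0.19 SE) and Nup54 (-0.13 ± 0.18 SE) came first without the block. Because both labels hold a culture of high and a culture of low Slimp signal, this test does not compare those kinds of culture.

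Cultures differed in how far the pore genes moved. The median difference was 0.37 in control 1, 0.36 in control 2, 0.20 in control 3, 0.13 in knockdown 2 and 0.46 in knockdown 3, where medians over all probe sets lay between -0.02 and 0.03. G2/M was higher for 25 genes in control 1, control 2 and knockdown 3, for 24 in control 3 and for 19 in knockdown 2. Of all probe sets, 55.7%, 54.8%, 53.5%, 45.7% and 49.6% were higher in G2/M in the listed order of cultures, so that share too was lowest in knockdown 2. Knockdown 3 had the largest difference of the 5 cultures for 16 pore genes, and knockdown 2 the smallest for 17. Of the 5113 brighter probe sets with a positive mean difference, 39.5% were largest in knockdown 3 and 41.5% smallest in knockdown 2, while over all probe sets the shares were 23.2% and 25.9%. Among the genes used to check the sort, ncd was also largest in knockdown 3 and smallest in knockdown 2, with differences of 1.99, 2.08, 1.87, 1.82 and 2.34. CycB, with 0.67, 0.79, 0.12, 0.30 and 0.75, was largest in control 2 and smallest in control 3. The 2 cultures with small differences were those with high Slimp signal, and the part of either in the other was not tested.

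Levels across cultures were averaged over G1 and G2/M. A moderated F-test over the 5 cultures, after the phase difference was taken out, called 2 of 28 pore genes, where 11.5% of all probe sets and 17.7% of the brighter ones were called. Mgtor read 10.36, 10.34, 9.997, 10.03 and 10.37 (adjusted p = 0.0344 in limma), so control 3 and knockdown 2 lay below the other cultures. Nup160 read 9.34, 9.51, 8.73, 9.01 and 9.25, highest in control 2 and lowest in control 3 (range 0.79, adjusted p = 0.0468). Elys (8.02, 8.15, 7.81, 7.81 and 8.18) and Nup50 (10.34, 10.38, 10.03, 10.07 and 10.35) showed the same 2 cultures lowest and missed the threshold (adjusted p = 0.0507 and 0.0545). The count was 0 without any 1 of control 1, control 2, control 3 or knockdown 2.

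Over all 28 genes the range between the highest and the lowest culture had a median of 0.28, against 0.24 for all probe sets. Nup62 had the smallest range, at 0.06, followed by Nup75 at 0.08 and mbo at 0.09. Control 3 was the lowest culture for 19 pore genes and control 2 the highest for 15, where they were so for 26.3% and 21.3% of all probe sets. All 28 genes lay above the median signal, and neither these shares nor the median range was computed for the brighter probe sets. Nup98-96 ran another way, highest in knockdown 2 (11.97) and lowest in knockdown 3 (11.59), and Nup214 was highest in control 3 (10.16).

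**Figure D4:**
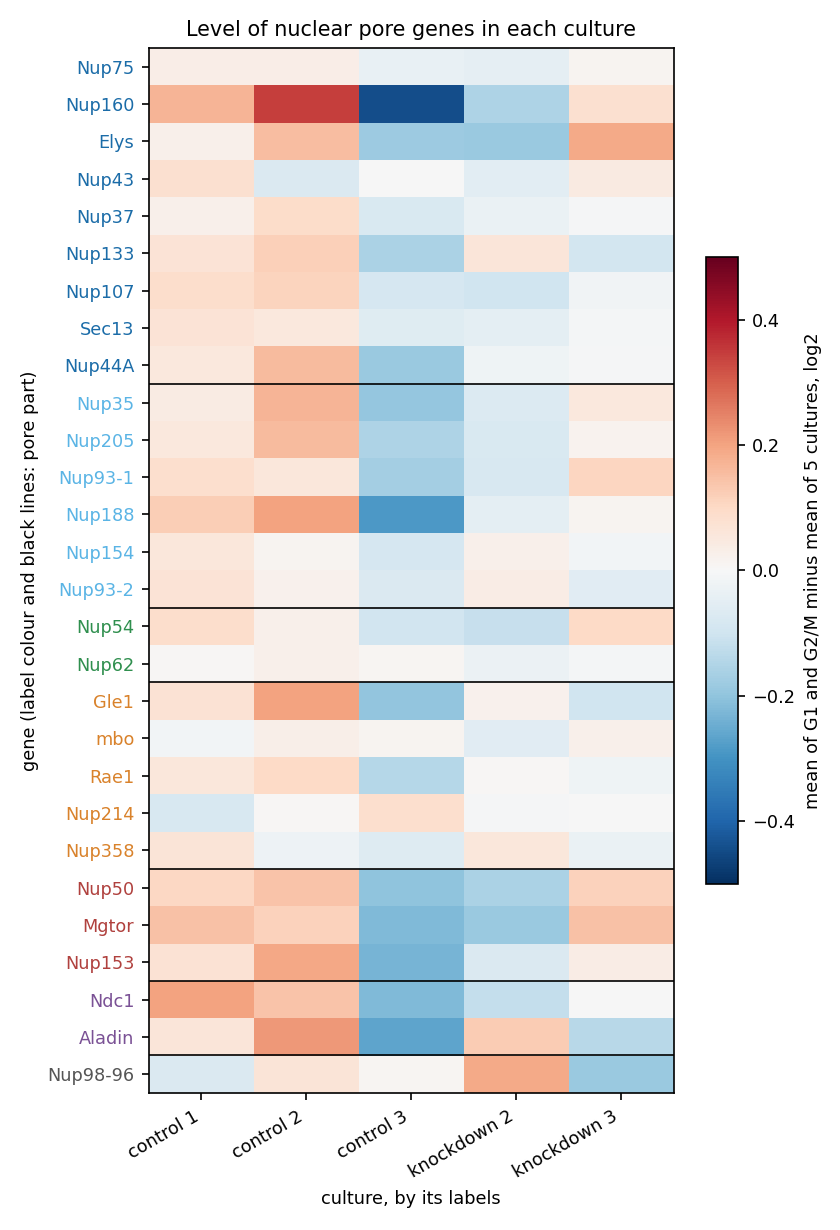
Level of each nuclear pore gene (rows, grouped by pore part) in each culture (columns), as the mean of its G1 and G2/M log2 signals minus the mean over the 5 cultures. Blue cells gather in the control 3 column, the lowest for 19 genes, and the widest row is Nup160, with a range of 0.79.

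The comparison of genotype labels within a phase called 0 pore genes and 0 of 18769 probe sets in limma, in G1 and in G2/M. Each label holds cultures of high and of low Slimp signal, so these calls do not tell whether Slimp knockdown changes pore genes. No pore gene had an unadjusted p under 0.05 in either phase, and 482 and 164 probe sets did. In G1, log2 differences of knockdown minus control labels lay between -0.12 and 0.05, and Nup107 (-0.07 ± 0.11 SE) and Ndc1 (-0.12 ± 0.21 SE) had the smallest p-values. In G2/M they lay between -0.12 and 0.07, and Nup107 (-0.12 ± 0.11 SE) and Nup62 (-0.07 ± 0.08 SE) came first. Ndc1 in G1 read 8.52 ± 0.10 (SD, n = 3) in libraries labelled control and 8.39 ± 0.17 (SD, n = 2) in those labelled knockdown.

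Transport factors that use the pore were described from the same fit, in which 10.3% of all probe sets rose and 9.00% fell, and 18.4% and 14.0% of the brighter ones. Of 16 measured importins and exportins, 1 rose and 1 fell (median 0.02): Ipo9, an importin, rose by 0.27 and Tnpo, the transportin that carries RNA-binding proteins, fell by 0.30. Of 6 genes of the Ran cycle, which gives transport its direction, 2 rose (median 0.17): RanGAP by 0.30 and RanBP3, a cofactor of export, by 0.37. The GTPase gene Ran itself lay at -0.01, and Fs(2)Ket, the fly importin beta, at 0.03. Adjusted p-values of the 4 genes that passed lay between 0.00410 and 0.0208 in limma. Whether these shares differ from those of the pore genes was not tested.

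Among 12 mRNA export genes, 4 rose and 1 fell (median 0.11), where 10.3% and 9.00% of all probe sets and 18.4% and 14.0% of the brighter ones did. PCID2 rose most, by 0.72 ± 0.11 (SE, adjusted p = 0.00317 in limma), from 8.72, 8.81, 8.84, 8.87 and 8.56 in G1 to 9.67, 9.63, 9.18, 9.27 and 9.65 in G2/M, without overlap. Like Ndc1, it was lowest in G2/M in the libraries labelled control 3 and knockdown 2. The THO complex genes thoc5 and Hpr1 rose by 0.41 and 0.28, and Nxt1, the partner of the main mRNA export receptor, fell by 0.25. The other gene that rose was e(y)2, by 0.22. Dbp80, the fly relative of the helicase that Gle1 activates, lay at 0.07 (adjusted p = 0.407).

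Of 9 genes of the lamina and inner nuclear membrane, 3 rose and 1 fell (median -0.0065), against the same shares of 10.3% and 9.00% of all probe sets and 18.4% and 14.0% of the brighter ones. LBR, the lamin B receptor, rose by 0.62 ± 0.07 (SE, adjusted p = 0.000886 in limma), kuk, a farnesylated envelope protein, by 0.48 and Ote, a LEM-domain protein, by 0.46. The LEM-domain gene bocks fell by 0.42 (adjusted p = 0.00152). MAN1, also a LEM-domain gene, lay at -0.08 and baf, the chromatin protein that LEM domains bind, at 0.09, and neither passed.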

How the data were processed

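RNA of sorted S2 cells was measured on Affymetrix arrays. Values deposited by the authors are log2 signals per probe set, and the submitters' processing notes name RMA. No version is given in the sources used here. Because RMA equalises the arrays' distributions, a shift common to most genes is lost. The median of each array was 6.554 to 6.608. Precision is limited by the 10 arrays.

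Of 18952 probe sets, 183 array controls were left out and 18769 tested, with no filter on signal. The platform annotation gave 1 symbol to 13647, several to 402 and none to 4720. RefSeq Release 6 matched 13544 by gene identifier.

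Tests used limma 3.58.1 in R 4.3.3, with Benjamini-Hochberg adjustment over all probe sets at 0.05. Phase over 5 cultures was fitted with culture as a fixed block (residual df 4), and the other contrasts with 1 coefficient per group and no block (residual df 6). The level among cultures was an F-test in the first fit. Phase over 5 cultures and phase in control were also fitted to simulated data. Those data held no differences between cultures, so they do not test the culture block. Deviations of paired G1 and G2/M libraries from their group means correlated at 0.514 to 0.685, and the pairing rests on labels and on this check. Knockdown 2 and knockdown 3 share 1 value (0.655) by construction, since each knockdown group holds 2 libraries. Mismatched libraries were not correlated, so the check does not show that paired libraries came from the same cells.

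The members and lists were chosen with earlier results of these data known. Values in every library were given for the 2 genes of each pore part with the largest phase difference and for those called in control. For the level among cultures the 4 genes with the smallest p were named, and for other contrasts those called or, with none, the 2 with the smallest p. Promoter motifs and protein repeats, also listed, were not analysed here. Nup358 and PCID2 were added after their values were seen. From each transport list up to 4 genes past the threshold were named, and Ran, Fs(2)Ket, e(y)2, Dbp80, MAN1 and baf were added after their values were seen. The listed apolo, cdm, sbr, Lam, LamC, CycA, stg, polo, aurA, Mhc and nos were not analysed here.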

Additional observations from a re-analysis of the deposited data

How the results depend on the processing

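Pore genes called between phases over 5 cultures numbered 22 as reported, where 3623 of 18769 probe sets passed. With no replicate block they numbered 14, where 1369 probe sets passed. They numbered 23 under array median centring (3788 probe sets), 19 under cyclic loess (3771) and 24 under a variance trend with robust fitting (4302). With brighter probe sets only 24 were called, where 3955 of 9385 passed. A mean per gene gave 23, where 2922 of 11982 genes passed. Without each culture in turn 14 to 23 pore genes and 2189 to 3414 probe sets passed. Under every one of these alternatives 11 genes stayed called (9 higher, 2 lower). With the fit without control 3 and knockdown 2, chosen after the data were seen, 10 did, since Nup358 was lost. No pore gene changed direction in any of them.

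For phase in control, the replicate block by culture gave 11 pore genes in place of 4 and 1678 probe sets in place of 169, and brighter probe sets only gave 311. Leaving out libraries gave 0 to 5 pore genes and 0 to 213 probe sets, and Mgtor, not called, turned from 0.05 to -0.0156, -0.0087 and -0.0612 without G2/M control 1, G2/M control 2 or G1 control 3, over a range of -0.0612 to 0.1743. In knockdown the replicate block gave 3 pore genes and 315 probe sets in place of 0, each other alternative 2 probe sets, and leaving out libraries 0 to 1. The level among cultures called 4 pore genes with cyclic loess (2224 of 18769 probe sets in place of 2165). It called 6 with brighter probe sets only (2486 of 9385) and 7 with a variance trend (3327 of 18769). With a mean per gene it called 4 (1656 of 11982 genes), and 0 to 3 without a culture (1188 to 1801 probe sets). Genotype contrasts, with replicate number as a replicate block too, and the interaction called 0 throughout. The cause of these shifts was not tested.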
